A study of Mus musculus with 21 samples.

Results

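Genes of the transforming growth factor beta (TGF-beta) family were followed in epididymal white fat of germ-free and conventionally raised mice. The set comprised 10 genes taken by symbol from the table of exon read counts: the ligand genes Tgfb1, Tgfb2 and Tgfb3, the receptor genes Tgfbr1, Tgfbr2 and Tgfbr3, the signal transducers Smad3 and Smad7, the activin B subunit gene Inhbb and the receptor gene Acvr1c. All 10 were among the 38087 genes of the table and all 10 passed the filter on low counts, which kept 18334 genes. The germ-free arm had 9 libraries, 2 at each of ZT06, ZT10 and ZT22 and 1 at each of ZT02, ZT14 and ZT18. The conventional arm had 12 libraries, 2 at each of these 6 times. Zeitgeber time (ZT) counts hours from lights on. Both arms were male C57BL/6j mice aged 15-16 weeks with food available at all times, and by their labels they differed in the gut microbiota. The comparison asks how fat without a microbiota differs from fat with one, over the day. Whether libraries came from different mice is not stated, and p-values therefore cover the spread among libraries, which may be technical.

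TGF-beta ligands are made as inactive precursors that stay bound to the matrix until they are released. An active ligand joins the type II receptor Tgfbr2 to the type I receptor Tgfbr1, which phosphorylates the transcription factors Smad2 and Smad3. Smad7 is induced by the pathway and blocks it, and Tgfbr3 (betaglycan) binds ligand on the cell surface and presents it to Tgfbr2. Inhbb encodes the subunit of activin B, which can signal through Acvr1c (ALK7), a type I receptor known from adipocytes. In adipose tissue the pathway is known for driving matrix production and for restraining adipocyte differentiation.

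Promoters were read from RefSeq's table for GRCm38.p6, as the 250 bases before the annotated start of each gene, and 7 of the 10 genes had an entry. No entry matched Tgfb3, Tgfbr3 or Smad7. Searched on both strands were the SMAD binding element CAGAC, the E-box CACGTG bound by clock factors, the GC box GGGCGG bound by Sp1 and the TATA box TATAAA. These letters occurred in 42.2%, 6.02%, 32.7% and 12.4% of 32851 promoters of the same length, in that order. Among the 7 genes, 2 held the SMAD element, 1 the E-box, 5 the GC box and 1 the TATA box. Shown are 4 promoters: Tgfb1 and Tgfbr1, whose levels differed between the arms, Tgfb2, which differs from its relative Tgfb1 in every motif searched, and Inhbb, which had the smallest p of the 10 for a difference in time course. Capitals mark the motifs, on either strand.
Tgfb1: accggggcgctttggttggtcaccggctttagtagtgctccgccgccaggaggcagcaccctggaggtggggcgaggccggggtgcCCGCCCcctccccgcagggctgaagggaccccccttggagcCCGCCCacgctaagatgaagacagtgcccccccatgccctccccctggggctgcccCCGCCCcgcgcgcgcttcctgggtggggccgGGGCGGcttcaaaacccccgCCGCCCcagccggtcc
Tgfb2: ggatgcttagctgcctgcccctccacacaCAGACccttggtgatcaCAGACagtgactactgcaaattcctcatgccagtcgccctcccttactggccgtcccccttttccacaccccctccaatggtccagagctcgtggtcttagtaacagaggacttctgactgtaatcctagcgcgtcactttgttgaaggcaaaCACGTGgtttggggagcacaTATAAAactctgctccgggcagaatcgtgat
Tgfbr1: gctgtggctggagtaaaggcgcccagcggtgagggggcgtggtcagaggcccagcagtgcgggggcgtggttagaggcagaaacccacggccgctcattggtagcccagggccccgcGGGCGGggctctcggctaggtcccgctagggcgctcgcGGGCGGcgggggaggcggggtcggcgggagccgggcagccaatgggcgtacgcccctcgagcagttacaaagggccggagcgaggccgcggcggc
Inhbb: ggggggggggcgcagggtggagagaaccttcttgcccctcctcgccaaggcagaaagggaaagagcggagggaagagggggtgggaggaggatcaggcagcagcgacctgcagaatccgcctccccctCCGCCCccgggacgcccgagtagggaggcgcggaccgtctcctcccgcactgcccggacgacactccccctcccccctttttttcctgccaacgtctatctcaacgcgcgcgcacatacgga

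The Tgfb1 window, chr7:25686752-25687001 on the plus strand, held 5 GC boxes and none of the other motifs, and 75.2% of its bases were G or C. The Tgfb2 window, chr1:186705990-186706239 on the minus strand, held no GC box. It had SMAD elements at positions -221 and -204, an E-box at -51 and a TATA box, counting -1 as the last base before the start. The Tgfbr1 window, chr4:47352972-47353221 on the plus strand, held 2 GC boxes, and the Inhbb window, chr1:119422249-119422498 on the minus strand, held 1. Tgfbr2 was the other gene with a SMAD element, at -160. A match gives the letters only and is not evidence that a factor binds there.

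Total counts per library ranged from 28900903 to 48348181 in germ-free and from 24388294 to 37097857 in conventional mice, and the lowest count of any of the 10 genes in any library was 92, for Tgfb2. Adipocyte markers were high in every library, with 6 of 6 tested, summed levels of 14090 to 22494 CPM (counts scaled to the library total) in germ-free and 12407 to 19413 CPM in conventional fat. Of these 6 genes Fabp4 was higher (log2 fold change 0.36, edgeR adjusted p = 0.0119), Lep lower (-0.67, adjusted p = 0.0117) and 4 did not pass, Adipoq among them. The Fabp4 call was lost with an offset for exon length, where 0 of the 6 were higher (15.2% of all genes). It was also lost without the germ-free libraries at ZT02 and ZT22 numbered 2, again with 0 higher (11.4% of all genes). Transcripts of neighbouring tissue were present too. The 6 markers of ciliated duct cells summed to between 2.70 and 405 CPM in germ-free and between 2.63 and 168 CPM in conventional libraries, and 6 libraries, 2 germ-free and 4 conventional, exceeded 5 times the median. The germ-free library at ZT22 numbered 2 was the deepest and had the lowest germ-free value of 7 of the 10 genes. The germ-free library at ZT02, which carries the number 2, had the highest germ-free value of 4 and the highest sums of macrophage and mesothelial markers. The 4 calls below held without this pair of libraries, without the 6 libraries high in duct markers, and without any single library. Without the pair 12.9% of all genes were lower and 11.4% higher, and without the 6 libraries 12.6% were lower and 13% higher.

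**Figure D1:**
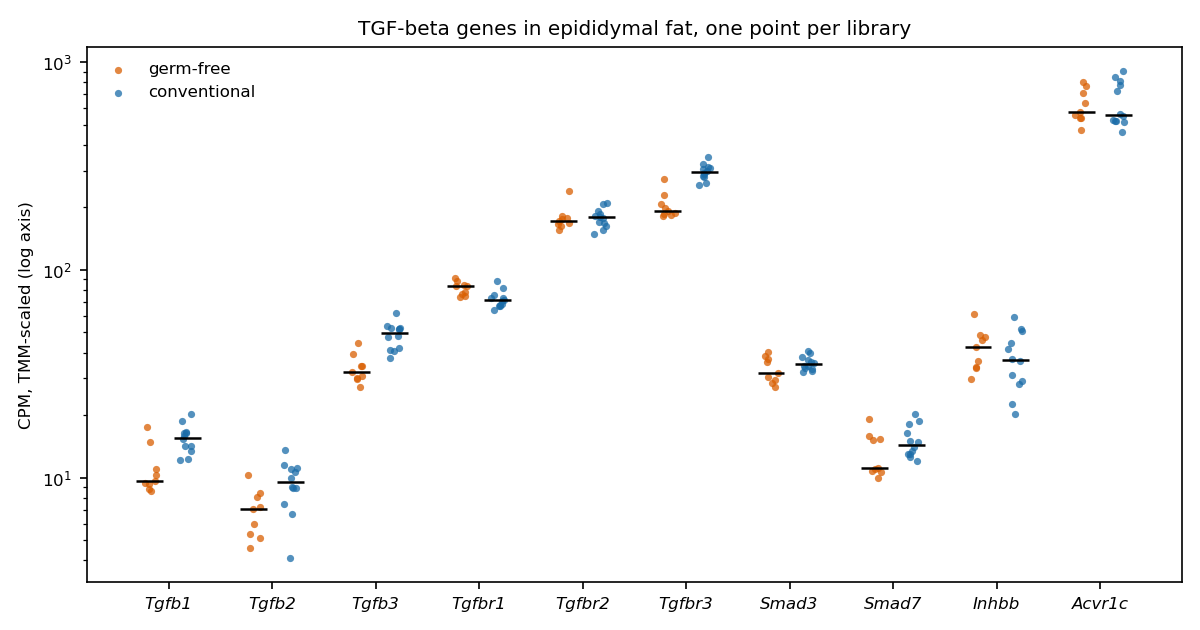
Level of each gene in CPM on a log axis, 1 point per library, with germ-free libraries (9) left of conventional ones (12) and a bar at each median. Tgfb1, Tgfb3 and Tgfbr3 sit lower and Tgfbr1 higher in germ-free fat, and for no gene are the arms fully apart.

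Germ-free fat had less Tgfb1, Tgfb3 and Tgfbr3 RNA and slightly more Tgfbr1 RNA than conventional fat. Of the 10 genes, 3 were lower and 1 was higher by edgeR's quasi-likelihood test at an adjusted p of 0.05 over all 18334 genes, and 6 did not pass. Among all genes 11.6% were lower and 15.3% higher, 26.9% in either direction. The median log2 fold change of the 10 genes was -0.15, against 0.03 for all genes tested. With bulk tissue, fewer cells of a type and less RNA per cell cannot be told apart. Within the libraries numbered 2 alone, 2 genes were lower, Tgfb2 and Tgfbr3 (2.57% of all genes), and 0 higher (2.45% of all genes). Tgfb2 was not called in the main fit, so Tgfbr3 was the only call that also passed there. Within the libraries numbered 1 alone, which leave 2 residual degrees of freedom, 0 passed (0% of all genes). The 4 called genes had the same direction in both subsets.

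**Figure D2:**
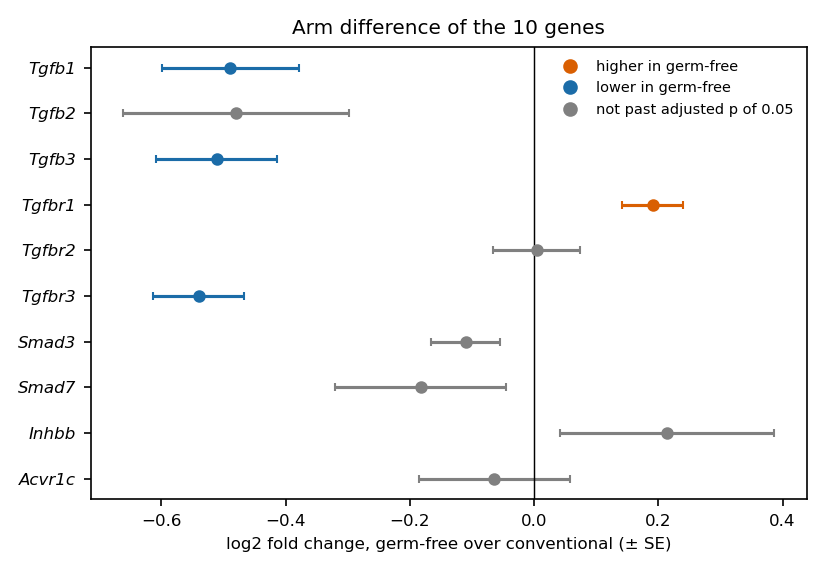
Log2 fold change of germ-free over conventional fat for each gene (points) with its standard error (bars), from the fit of all 21 libraries with time of day as a factor. Tgfb1, Tgfb3 and Tgfbr3 lie between -0.54 and -0.49, Tgfbr1 at 0.19, and the grey genes did not pass an adjusted p of 0.05.

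Of the 3 ligand genes, Tgfb1 and Tgfb3 were lower in germ-free fat and Tgfb2 did not pass. Tgfb1, the isoform best known from immune and stromal cells (chromosome 7, 25687002 to 25705077, plus strand, GRCm38), had a lowest, median and highest level of 8.61, 9.58 and 17.6 CPM in germ-free libraries, against 12.1, 15.5 and 20.1 CPM in conventional ones. The arms overlapped, but 7 of 9 germ-free libraries lay below the lowest conventional one, the exceptions being those at ZT02 (14.8 CPM) and at ZT10 numbered 2 (17.6 CPM). Tgfb1 averaged 11.1 ± 3.08 CPM in germ-free (SD, n = 9) and 15.5 ± 2.42 CPM in conventional fat (SD, n = 12), a log2 fold change of -0.49 ± 0.11 (SE, edgeR adjusted p = 0.00425). Macrophages are a known source of Tgfb1, and their markers had 1 of 6 genes lower (Itgax) and 0 higher. All 6 had a negative log2 fold change, with a median of -0.22. Without the germ-free libraries at ZT02 and ZT22 numbered 2, 3 of the 6 were lower (12.9% of all genes). With DESeq2 2 were lower (13.4% of all genes). Summed levels were 675 to 1277 CPM (median 781) in germ-free and 706 to 1146 CPM (median 960) in conventional libraries, none at 0. The part of macrophages in the Tgfb1 difference was not tested. In libraries numbered 2 alone the log2 fold change of Tgfb1 was -0.46 (adjusted p = 0.113) and in those numbered 1 alone -0.67 (adjusted p = 0.246).

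Tgfb3, a ligand isoform made by mesenchymal cells (chromosome 12, 86056745 to 86079041, minus strand), was the most abundant ligand per kilobase of exon. Its lowest, median and highest levels were 27.2, 32.1 and 44.6 CPM in germ-free libraries, against 37.7, 49.9 and 61.9 CPM in conventional ones. Again 7 of 9 germ-free libraries lay below every conventional library, and all 9 lay below the conventional median. Tgfb3 averaged 33.7 ± 5.40 CPM in germ-free and 48.4 ± 6.97 CPM in conventional fat, a log2 fold change of -0.51 ± 0.10 (SE, edgeR adjusted p = 0.00157). The gene overlaps Ttll5 on the other strand, and the strand setting of the counting is not given in the sources used here, so part of its reads may be assigned with error. Tgfb2 and Acvr1c overlap predicted gene models on the other strand and share this limit. Tgfbr3 overlaps predicted gene models on both strands, so its reads may be assigned with error under any strand setting. In libraries numbered 2 alone the log2 fold change was -0.58 (adjusted p = 0.0646) and in those numbered 1 alone -0.48 (adjusted p = 0.293).

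Tgfb2, the least abundant ligand (chromosome 1, 186622792 to 186705989, minus strand), had values of 4.57, 7.06 and 10.3 CPM at the lowest, median and highest germ-free library, against 4.10, 9.49 and 13.6 CPM in conventional libraries. The arms overlapped across most of their range, while the germ-free mean was below the conventional mean at 6 of 6 times. Tgfb2 averaged 6.90 ± 1.83 CPM in germ-free and 9.42 ± 2.51 CPM in conventional fat, and its log2 fold change of -0.48 ± 0.18 did not pass (edgeR adjusted p = 0.0606). It passed with DESeq2 (adjusted p = 0.0254, where 13.4% of all genes were lower and 15.8% higher) and without any 1 of 4 libraries, the germ-free ones at ZT06 numbered 2 (0.0493) and ZT22 numbered 1 (0.0181) and the conventional ones at ZT06 (0.0351) and ZT18 (0.0202) numbered 1. The highest germ-free Tgfb2 value belonged to the library at ZT22 numbered 1, which also had the highest duct marker sum, and without the 6 libraries high in duct markers the log2 fold change was -0.37 (adjusted p = 0.0556). Without the germ-free libraries at ZT02 and ZT22 numbered 2 it was -0.33 (edgeR adjusted p = 0.201). At ZT06, ZT10 and ZT22 alone it was -0.28 (adjusted p = 0.306), and without single libraries the adjusted p reached 0.139. In libraries numbered 1 alone the log2 fold change was -0.03 and in those numbered 2 alone -0.83 (adjusted p = 0.0322).

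The sum of the ligand RNAs was lower in germ-free fat while their proportions were close. The 3 ligands together stood at 15.1 ± 2.15 CPM per kilobase in germ-free (range 12.0 to 19.2) and 21.4 ± 2.32 CPM per kilobase in conventional libraries (range 17.9 to 24.2). Of this sum, Tgfb3 made up 62.0 ± 5.33% in germ-free and 62.6 ± 4.03% in conventional fat. Tgfb1 made up 28.5 ± 5.25% and 28.3 ± 3.92%, and Tgfb2 9.51 ± 2.54% and 9.09 ± 2.58%, germ-free before conventional. Each pair of shares differed by less than the SD between libraries.

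The receptors moved in different directions. Tgfbr3, the co-receptor betaglycan (chromosome 5, 107106570 to 107289629, minus strand), had 181, 192 and 272 CPM at the lowest, median and highest germ-free library, against 257, 296 and 347 CPM in conventional libraries. Of the germ-free libraries 8 of 9 lay below every conventional one, and the exception was the library at ZT10 numbered 2. It averaged 204 ± 29.7 CPM in germ-free and 296 ± 25.4 CPM in conventional fat, and its log2 fold change of -0.54 ± 0.07 had the smallest p of the 10 genes (edgeR adjusted p = 1.84e-04). At each of the 6 times every germ-free library lay below both conventional ones, as was the case for 1.81% of all genes. In libraries numbered 2 alone the log2 fold change was -0.46 (adjusted p = 0.0353), and in those numbered 1 alone -0.69 (adjusted p = 0.146).

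Tgfbr1, the type I receptor that carries the signal to Smad2 and Smad3 (chromosome 4, 47353222 to 47414931, plus strand), was the gene that was higher. Its lowest, median and highest levels were 74.1, 83.2 and 90.9 CPM in germ-free libraries, against 64.2, 71.2 and 88.4 CPM in conventional ones. The ranges overlapped, both conventional libraries at ZT02 were the highest of their arm at 81.6 and 88.4 CPM, and all 9 germ-free libraries lay above the conventional median. Tgfbr1 averaged 81.6 ± 6.00 CPM in germ-free and 72.4 ± 6.93 CPM in conventional fat, a log2 fold change of 0.19 ± 0.05 (SE, edgeR adjusted p = 0.00902). At 5 of 6 times the germ-free libraries lay above both conventional ones, as was the case at 5 or more times for 9.08% of genes. In libraries numbered 2 alone the log2 fold change was 0.11 (adjusted p = 0.254) and in those numbered 1 alone 0.30 (adjusted p = 0.250).

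Tgfbr2, the type II receptor that binds ligand first (chromosome 9, 116084293 to 116175360, minus strand), did not pass. It had 156, 171 and 239 CPM at the lowest, median and highest germ-free library, against 149, 179 and 209 CPM in conventional libraries. The germ-free library at ZT02 stood alone at 239 CPM, and the other 8 lay between 156 and 182 CPM. Tgfbr2 averaged 178 ± 24.3 CPM in germ-free and 178 ± 18.7 CPM in conventional fat, with a log2 fold change of 0.00 ± 0.07 (edgeR adjusted p = 0.977) whose sign depended on the setting. As a ratio of CPM per kilobase, Tgfbr3 to Tgfbr1 stood at 2.26 ± 0.437 in germ-free and 3.71 ± 0.551 in conventional libraries, and Tgfbr3 to Tgfbr2 at 0.763 ± 0.130 in germ-free and 1.10 ± 0.154 in conventional libraries.

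Neither signal transducer passed. Smad3, the transcription factor that the receptor phosphorylates (chromosome 9, 63646767 to 63757994, minus strand), had 27.2, 31.8 and 40.1 CPM at the lowest, median and highest germ-free library, against 32.3, 35.0 and 40.8 CPM in conventional libraries. Of the germ-free libraries 5 of 9 lay below every conventional one, and the other 4 lay within the conventional range. The means were 33.3 ± 4.74 CPM in germ-free and 35.6 ± 2.77 CPM in conventional fat, a log2 fold change of -0.11 ± 0.06 (edgeR adjusted p = 0.156).

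Smad7, the inhibitory Smad that the pathway itself induces (chromosome 18, 75367529 to 75395935, plus strand), had 10.004, 11.2 and 19.1 CPM in germ-free libraries, against 12.0, 14.4 and 20.1 CPM in conventional ones, as lowest, median and highest. Here too 5 of 9 germ-free libraries lay below the conventional range and 4 within it. Means of 13.2 ± 3.21 CPM in germ-free and 15.1 ± 2.68 CPM in conventional fat gave a log2 fold change of -0.18 ± 0.14 (edgeR adjusted p = 0.355).

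The activin branch was at similar daily means in both arms. Inhbb, whose product dimerizes to activin B (chromosome 1, 119415465 to 119422248, minus strand), had 29.8, 42.5 and 61.1 CPM at the lowest, median and highest germ-free library, against 20.2, 36.8 and 59.6 CPM in conventional libraries. Its mean was 42.2 ± 9.78 CPM in germ-free and 37.8 ± 12.3 CPM in conventional fat, with a log2 fold change of 0.21 ± 0.17 (edgeR adjusted p = 0.395). Acvr1c, the receptor ALK7 (chromosome 2, 58267453 to 58357895, minus strand), was the most abundant of the 10 genes, at 471, 577 and 803 CPM in germ-free and 462.5, 557 and 902 CPM in conventional libraries. It averaged 622 ± 114 CPM in germ-free and 644 ± 157 CPM in conventional fat, and its log2 fold change was -0.06 ± 0.12 (edgeR adjusted p = 0.758). For both genes the arms overlapped over most of their range.

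Per kilobase of exon, the order of the genes differed between the arms in the middle ranks. Acvr1c was highest, at 49.6 CPM per kilobase in germ-free and 51.3 in conventional fat. Tgfbr3 stood at 28.0 in germ-free and 40.7 in conventional fat, so that it ranked below Tgfbr2 (37.1 and 37.3, germ-free before conventional) in germ-free mice and above it in conventional mice. Tgfbr1 followed at 12.5 in germ-free and 11.1 in conventional fat, and Inhbb (9.93 and 8.88) and Tgfb3 (9.34 and 13.4) lay next, so that Tgfb3 ranked below Inhbb in germ-free and above Tgfbr1 in conventional fat. Smad3 (6.00 and 6.43), Tgfb1 (4.32 and 6.04), Smad7 (2.93 and 3.34) and Tgfb2 (1.42 and 1.94) were lowest, in the same order of arms.

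**Figure D3:**
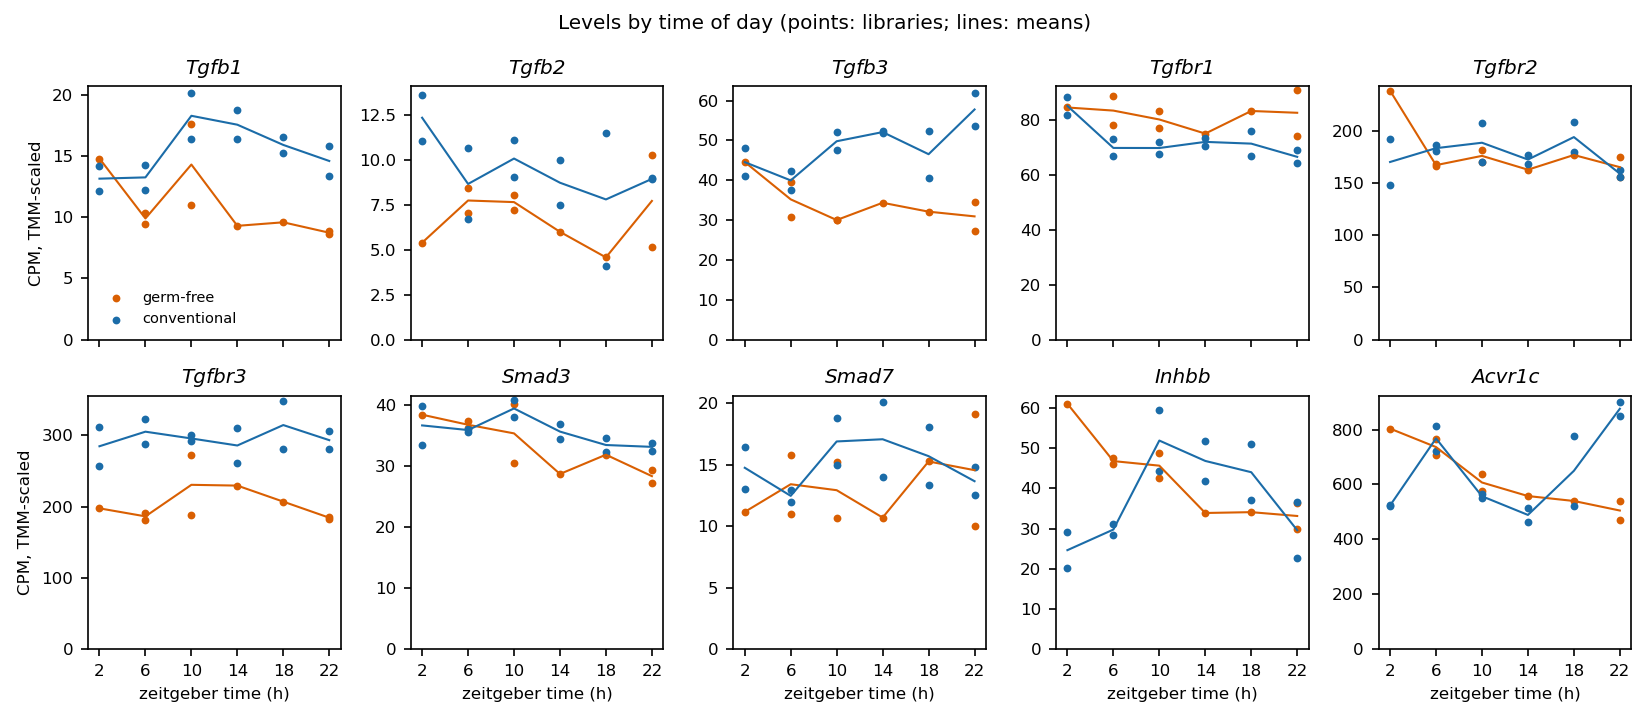
Level of each gene in CPM against zeitgeber time in hours, with a point per library and a line through the means of each arm. The mean of Tgfbr3 is lower in germ-free fat at all 6 times and that of Tgfb3 from ZT06 on, with Tgfb3 libraries apart from ZT10 on. The lines of Inhbb and Acvr1c cross.

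The size of the mean differences varied over the day. In pairs of neighbouring times, with 3 germ-free and 4 conventional libraries each, the mean log2 difference of Tgfb1 was -0.22 at ZT02 and ZT06, -0.55 at ZT10 and ZT14 and -0.75 at ZT18 and ZT22. For Tgfb3 it was -0.15, -0.70 and -0.73 in the same windows, and at ZT02 the germ-free library (44.6 CPM) lay between the conventional ones (47.98 and 41.1 CPM). At ZT22, Tgfb3 had 34.6 and 27.2 CPM in germ-free fat, against 53.6 and 61.9 CPM in conventional fat. The mean log2 differences of Tgfbr3 were -0.63, -0.35 and -0.66, and those of Tgfbr1 were 0.12, 0.15 and 0.26. All germ-free libraries lay below all conventional ones for Tgfbr3 in the first window (7.09% of all genes), for Tgfb3 in the second (10.8%) and for Tgfb1, Tgfb3, Tgfbr3 and Smad3 in the last (11.4%). They lay above for Tgfbr1 in the second (13.7%) and for none of the 10 in the last (12.7%). These window values are descriptions with no test. The rhythm difference of these 4 genes, which tests a change of course over the day, did not pass (edgeR adjusted p between 0.677 and 0.995).

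Inhbb had a called rhythm in conventional fat. In a fit of a 24 h cosine for each arm, Inhbb had a peak at 13.5 h and an amplitude of 0.55 on the log2 scale in conventional fat, and it was the 1 of 10 genes that passed there (edgeR adjusted p = 0.0382), where 0.813% of all genes passed (14.1% at an unadjusted p under 0.05). In germ-free fat the fitted peak was at 5.3 h with an amplitude of 0.37, which did not pass (edgeR adjusted p = 0.171). In that arm 0 of the 10 genes passed with edgeR, where 4.64% of all genes did, and 2 of them, Inhbb and Smad3, had an unadjusted value under 0.05, as did 22.8% of all genes. The difference of the rhythms of Inhbb had an unadjusted p of 5.71e-04 and did not pass over all genes with edgeR (adjusted p = 0.551, range 0.302 to 0.729 without single libraries). With edgeR no gene of the table passed that test (0%), with 1415 (7.72%) at an unadjusted p under 0.05. With DESeq2 48 genes (0.262%) passed, and Inhbb was among them (adjusted p = 0.0133).

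The values behind the Inhbb curves show where the arms parted. At ZT02, Inhbb had 61.1 CPM in the germ-free library, against 20.2 and 29.1 CPM in the conventional ones. At ZT06 it had 47.5 and 46.0 CPM in germ-free fat, against 31.2 and 28.3 CPM in conventional fat. All 3 germ-free libraries at these times lay above all 4 conventional ones, with a mean log2 difference of 0.93, and 6.64% of all genes were apart in that direction there. At ZT10 the arms overlapped, with 42.5 and 48.8 CPM in germ-free fat, against 59.6 and 44.2 CPM in conventional fat. At ZT14 Inhbb had 33.9 CPM in the germ-free library, against 51.9 and 41.8 CPM in conventional ones, and at ZT18 it had 34.1 CPM in the germ-free library, against 37.0 and 51.0 CPM in conventional ones. Inhbb in germ-free fat was below both conventional libraries at each of these times. At ZT22 the values overlapped again, at 36.4 and 29.8 CPM in germ-free fat and 22.6 and 36.5 CPM in conventional fat.

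The conventional Inhbb rhythm was close to the threshold. The call was lost without any 1 of 8 conventional libraries, both at ZT02, ZT06 and ZT10 and those numbered 1 at ZT14 and ZT22, with adjusted p between 0.0562 and 0.124 and amplitudes between 0.49 and 0.60. Without the 6 libraries high in duct markers, which take away both conventional libraries at ZT02, the amplitude was 0.59 and the adjusted p 0.201, and 0.338% of all genes passed there.

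**Figure D4:**
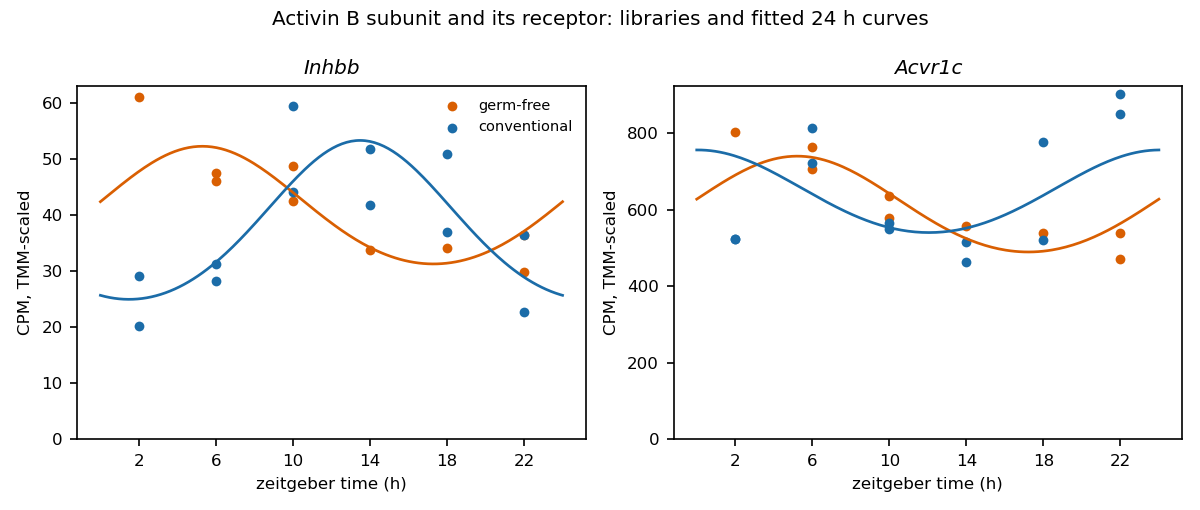
Levels of Inhbb and Acvr1c in CPM against zeitgeber time in hours, with a point per library and the fitted 24 h curve of each arm. The Inhbb curve peaks at 5.3 h in germ-free and 13.5 h in conventional fat, and the Acvr1c arms are farthest apart at ZT22, with germ-free libraries below.

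Acvr1c, the receptor for activin B, also crossed over the day, although no test of its rhythm passed. At ZT02 it stood at 803 CPM in the germ-free library, against 524 and 523 CPM in conventional ones. That germ-free library was the only one at ZT02, and it had the highest germ-free value of both Acvr1c and Inhbb. Both conventional libraries at ZT02 were among the 6 high in duct markers, as was the germ-free one at ZT22 numbered 1. At ZT22 Acvr1c stood at 538 and 471 CPM in germ-free fat, against 902 and 850 CPM in conventional fat, the opposite order. The mean log2 difference was 0.26 at ZT02 and ZT06, 0.18 at ZT10 and ZT14 and -0.53 at ZT18 and ZT22. The fitted amplitude was 0.30 with a peak at 5.2 h in germ-free fat (edgeR adjusted p = 0.294) and 0.24 with a peak at 0.1 h in conventional fat (adjusted p = 0.476), and the difference of the rhythms had an adjusted p of 0.669. Smad3 had an amplitude of 0.20 in germ-free fat that did not pass with edgeR (adjusted p = 0.112) and passed with DESeq2 (adjusted p = 0.0499), with which 11.1% of all genes were rhythmic in germ-free and 4.45% in conventional fat.

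The genes whose levels were most like those of the 4 called genes were named from 11750 protein-coding genes, by Pearson's r of log2 CPM over the 21 libraries. Both arms and all times enter these values, which share library depth and the arm difference itself, and they are descriptions. Tgfb1 was closest to Smap2 (r = 0.944, rho = 0.921) and Dennd4b (r = 0.941, rho = 0.920). Tgfb3 was closest to Sparc, which encodes a matrix glycoprotein (r = 0.926, rho = 0.929), and Cyp27a1, a sterol hydroxylase gene (r = 0.923, rho = 0.900). Tgfbr3 was closest to Zmiz1 (r = 0.952, rho = 0.788) and Gnaq, a G protein subunit gene (r = 0.952, rho = 0.878). Tgfbr1 was closest to Hiat1 (r = 0.881, rho = 0.900) and Rae1 (r = 0.857, rho = 0.888). Of these 8 genes only Hiat1 did not pass between the arms (log2 fold change 0.15 ± 0.07, adjusted p = 0.106).

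**Figure D5:**
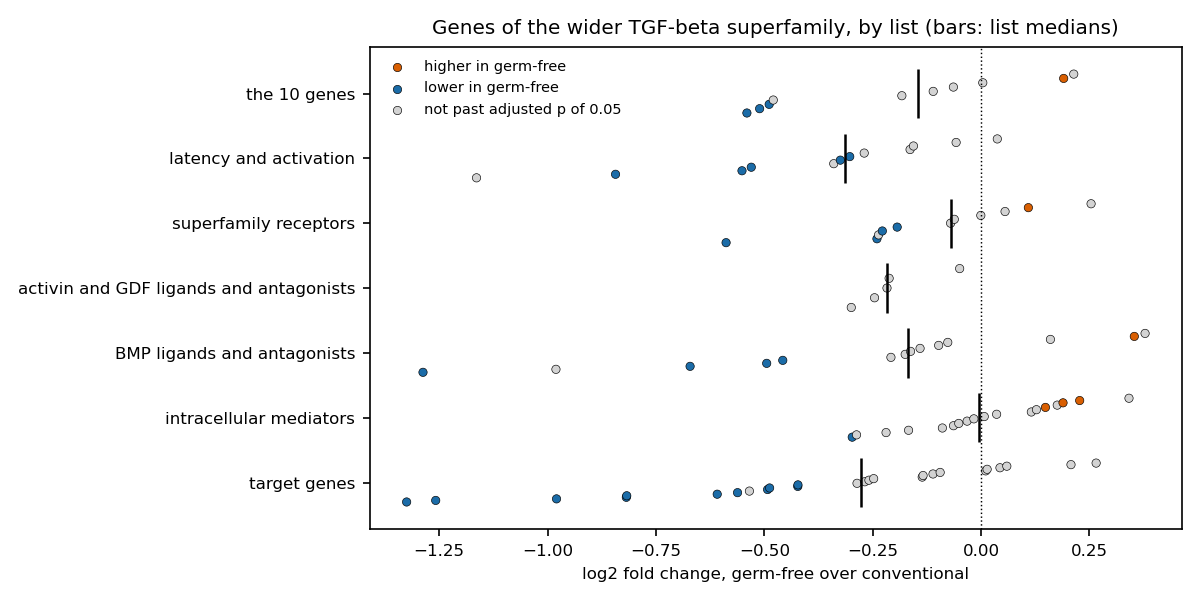
Log2 fold change of germ-free over conventional fat for each tested gene of the 10 genes and of 6 lists of the wider family, with bars at the list medians. All called latency and target genes lie on the lower side, and the intracellular mediators are centred near 0.

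Genes that hold TGF-beta latent in the matrix were lower or did not pass. Of 12 tested genes of latency and activation 5 were lower, 0 were higher and 7 did not pass, where 11.6% of all genes were lower and 15.3% higher. The list's median log2 fold change was -0.31, against 0.03 for all genes. Ltbp3, a latent TGF-beta binding protein gene, had 65.5, 74.8 and 129.9 CPM at the lowest, median and highest germ-free library, against 119.5, 142 and 229 CPM in conventional libraries, so the arms overlapped at their edges. Its log2 fold change was -0.84 ± 0.12 (edgeR adjusted p = 2.05e-04). The related Ltbp1 (-0.53 ± 0.07) and Ltbp4 (-0.55 ± 0.12) were lower too, as was Bmp1, the gene of a protease that processes collagen precursors (-0.30 ± 0.08). The fifth was Itgav, the integrin alpha V chain gene that takes part in activation (-0.32 ± 0.11, edgeR adjusted p = 0.0416, chosen after its values were seen). Not past were Fbn1, the fibrillin that anchors latent complexes (-0.34 ± 0.18), and Thbs1, the activator thrombospondin (-1.16 ± 0.63, adjusted p = 0.191). Thbs1 passed without the germ-free library at ZT02 (-1.87, adjusted p = 0.00237), as did Fbn1 (-0.52, adjusted p = 0.0268), which also passed without the conventional library at ZT02 numbered 1 (-0.44, adjusted p = 0.0382). Without the 6 libraries high in duct markers 8 of the list were lower, as were 12.6% of all genes. With an offset for exon length 4 of the list were lower, as were 10.4% of all genes. Without single libraries 4 to 7 of the list were lower, where 1794 to 2437 of all genes were. Ltbp1, Ltbp3, Ltbp4 and Bmp1 kept their calls with that offset and without any single library.

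Target genes of the pathway were lower in 11 of 26 cases, higher in 0 and not past in 15, against 11.6% of all genes lower and 15.3% higher. The list's median log2 fold change was -0.28. The fibrillar collagen genes Col5a1 (-0.82 ± 0.08), Col1a2 (-0.82 ± 0.09) and Col1a1 (-1.33 ± 0.15) were lower with no overlap of the arms, as were 0.371% of all genes in that direction, and Col3a1 fell by 0.56 on the log2 scale (SE 0.08, edgeR adjusted p = 1.99e-04). Col1a1 had 68.1, 105 and 202 CPM at the lowest, median and highest germ-free library, against 224, 296 and 369 CPM in conventional libraries. Ctgf, a common target, did not pass (0.21 ± 0.21, edgeR adjusted p = 0.524, chosen after its values were seen). The most abundant of the list that did not pass were Tsc22d1 (-0.13 ± 0.06) and Acta2, smooth muscle actin (-0.27 ± 0.16). Tsc22d1 passed without the germ-free library at ZT22 numbered 1 (-0.19, adjusted p = 0.00508), and Acta2 without the one at ZT22 numbered 2 (-0.43, adjusted p = 0.0188). Progenitor and fibroblast markers, of cells that make such matrix, had 0 of 6 genes past the threshold, with summed levels of 2085 to 2650 CPM in germ-free and 1823 to 2796 CPM in conventional libraries. The part of cell makeup was not tested.

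Over the day, 5 of the 26 target genes were rhythmic in germ-free fat, where 4.64% of all genes were, and 1 in conventional fat, where 0.813% were. Cdkn1a, a cell cycle inhibitor gene, was rhythmic in both, with amplitudes of 1.54 and peak 21.1 h in germ-free (edgeR adjusted p = 0.00133) and 1.11 and peak 22.1 h in conventional fat (adjusted p = 0.0317). Also rhythmic in germ-free fat were Col3a1 (2.2 h), Junb (6.5 h) and Cdkn2b (21.7 h), given by their peaks, and these genes were named after their values were seen. The difference of the rhythms passed for none of the 26. Without the 2 germ-free libraries at ZT02 and ZT22 numbered 2, 2 target genes were rhythmic in germ-free fat, and without the 6 libraries high in duct markers 3 were in germ-free and 0 in conventional fat. In these subsets 3.88% and 3.96% of all genes were rhythmic in germ-free fat, and 1.65% and 0.338% in conventional fat.

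Other receptors of the superfamily were lower in 4 of 11 cases, higher in 1 and not past in 6, beside 11.6% of all genes lower and 15.3% higher, with a median log2 fold change of -0.07. The lower ones included receptor genes for bone morphogenetic proteins (BMPs), namely Bmpr1a (-0.19 ± 0.04, edgeR adjusted p = 0.00227), Bmpr2 (-0.23 ± 0.05) and Acvr1, which encodes ALK2 (-0.59 ± 0.13). Acvrl1, the endothelial receptor ALK1, was also lower (-0.24 ± 0.07). The higher gene was the activin receptor gene Acvr2a (0.11 ± 0.04, adjusted p = 0.0411, picked out with its values known). With relative log expression (RLE) scaling, and without the 6 libraries high in duct markers, 0 genes of the list were higher. Eng, the endothelial co-receptor endoglin (-0.00 ± 0.12), and Acvr1b, the activin receptor ALK4 (-0.24 ± 0.10), did not pass. Acvr1b passed without any 1 of 3 germ-free libraries, those at ZT02 (adjusted p = 0.0245), ZT06 numbered 2 (0.0405) and ZT22 numbered 1 (0.0451). Of 6 endothelial marker genes 2 were higher, 1 lower and 3 not past, with summed levels of 588 to 867 CPM in germ-free and 562 to 894 CPM in conventional libraries, and their part in the Acvrl1 value was not tested.

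BMP ligands and antagonists were lower in 4 of 14 cases, higher in 1 and not past in 9, set against 11.6% and 15.3% of all genes, with a median log2 fold change of -0.17. Bmp2 (-0.67 ± 0.13, edgeR adjusted p = 0.00162) and the antagonist gene Chrdl1 (-0.49 ± 0.11) were lower. So was Gdf10 (-0.46 ± 0.16, chosen after its values were seen). Bmp6 was higher (0.35 ± 0.10, adjusted p = 0.0133), a call lost without the 6 libraries high in duct markers (0.25, adjusted p = 0.0836) and without the 2 germ-free libraries at ZT02 and ZT22 numbered 2 (0.20, adjusted p = 0.108). Fstl1 (-0.14 ± 0.13) and Twsg1 (-0.10 ± 0.05) did not pass. Fstl1 passed without the 6 libraries high in duct markers (-0.33, adjusted p = 0.0282). Twsg1 passed without the germ-free library at ZT22 numbered 1 (adjusted p = 0.0470).

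Of 18 intracellular mediators 3 were higher, 1 was lower and 14 did not pass, beside 15.3% of all genes higher and 11.6% lower, and the median log2 fold change was -0.0045. Smad2, the partner of Smad3 downstream of Tgfbr1, had 51.5, 59.9 and 62.3 CPM at the lowest, median and highest germ-free library, against 46.9, 51.0 and 55.3 CPM in conventional libraries, a log2 fold change of 0.19 ± 0.04 (edgeR adjusted p = 0.00178). Smurf1, a ubiquitin ligase gene acting on Smads and receptors (0.23 ± 0.07), and the phosphatase gene Ppm1a (0.15 ± 0.05, adjusted p = 0.0382) were higher. Ski, a corepressor of Smads, was lower (-0.30 ± 0.08, adjusted p = 0.00892). Smurf1 missed the threshold when the germ-free library at ZT18 (adjusted p = 0.0838), that at ZT22 numbered 2 (0.05001) or the 6 libraries high in duct markers (0.0560) were left out, and the Ppm1a call was lost without any 1 of 16 libraries (adjusted p up to 0.119). With all libraries, Ppm1a passed with DESeq2 but missed the threshold with RLE scaling (0.0527), the replicate block (0.0519), the length offset (0.111) and no filter on low counts (0.0886). Smad5 (0.04 ± 0.04) and Smurf2 (-0.09 ± 0.03, adjusted p = 0.0676) did not pass. Smad5 passed with an offset for exon length (0.12, adjusted p = 0.00659). Smurf2 passed with DESeq2 (adjusted p = 0.0310) and without any 1 of 4 libraries, the germ-free ones at ZT02 (0.0492), ZT06 numbered 1 (0.0327) and ZT10 numbered 2 (0.0201) and the conventional one at ZT06 numbered 2 (0.0462). Rhythmic in germ-free fat were 3 of the list, chosen after their values were seen: Pmepa1, a feedback inhibitor gene (amplitude 0.82, peak 12.4 h), Zfyve9 (0.14, 11.4 h) and Ppm1a (0.22, 11.4 h). In that arm 4.64% of all genes were rhythmic. Without the 6 libraries high in duct markers 1 of the list was, as were 3.96% of all genes.

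Activin and GDF ligands and antagonists other than Inhbb were scarce. Of 11 listed genes 5 passed the filter and all 5 had a negative log2 fold change, with a median of -0.22. With edgeR 0 passed the test, where 11.6% of all genes were lower and 15.3% higher. With DESeq2 0 passed too, where 13.4% of all genes were lower and 15.8% higher. The activin-binding protein genes Fst (9.69 ± 1.24 CPM in germ-free and 11.1 ± 2.24 CPM in conventional fat) and Fstl3 (6.78 ± 2.18 and 8.37 ± 2.15 CPM, germ-free before conventional) were the most abundant. Their log2 fold changes were -0.21 ± 0.10 (edgeR adjusted p = 0.120) and -0.22 ± 0.15 (adjusted p = 0.311). Fst passed without the germ-free library at ZT22 numbered 2 (-0.27, adjusted p = 0.0478), and Fstl3 without the 6 libraries high in duct markers (-0.46, adjusted p = 0.0390). Inhba, of activin A, stood at 0.825 ± 0.651 CPM in germ-free and 0.971 ± 0.532 CPM in conventional fat (chosen after its values were seen), at which level small differences were not detectable.

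Exon length moved with the arm, and the calls were repeated with that trend removed. The correlation, across genes, of a library's deviation in log2 CPM with exon length averaged -0.112 ± 0.133 in germ-free and 0.0844 ± 0.0848 in conventional libraries. With a length offset per library the same counts, 3 lower and 1 higher, were obtained among the 10 genes, where 10.4% of all genes were lower and 15.2% higher, with log2 fold changes of -0.53 for Tgfb1, -0.52 for Tgfb3, -0.46 for Tgfbr3 and 0.25 for Tgfbr1.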

How the data were processed

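Total RNA of mouse epididymal fat was sequenced in 21 libraries. Per the labels' protocols, total RNA was extracted with miRNeasy columns, depleted of ribosomal RNA and built into stranded libraries. The submitters' processing notes name STAR 2.4.0i and mm10. How reads were counted (program, strand, multi-mapping, annotation) is not given in the sources used here. Whole-number read counts over exons were what the authors deposited, for 38087 genes, and these were used unchanged. Depth per library is given with the results.

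Counts were tested in R 4.3.3 with edgeR 4.0.16 (filterByExpr, trimmed mean of M values (TMM) scaling, quasi-likelihood F test), with time as a 6-level factor and arm. A second fit gave each arm a mean, cosine and sine of 24 h. P-values were adjusted by Benjamini-Hochberg over 18334 genes, with a threshold of 0.05. CPM are TMM-scaled, and correlations used log2 CPM with a prior count of 2. DESeq2 1.42.0, RLE scaling, no filter, a length offset (a lowess trend of each library over log2 exon length), a replicate block and subsets of libraries were alternatives. Tests were checked on simulated data. Positions came from GENCODE M21 (GRCm38) and promoters from RefSeq. Plots used matplotlib 3.10.9.

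The 10 genes, the lists and the tests were chosen with earlier results of these data known. Beyond the 10 genes, each list gave up to 4 called genes with the smallest p and the 2 most abundant that did not pass. Each called gene gave its 2 most correlated protein-coding genes, among those averaging 1 or more in log2 CPM. Cell type markers were summed per library. Replicate numbers in the titles were not taken to pair the arms and were not in the main model. The omission of the germ-free libraries at ZT02 and ZT22 numbered 2 was chosen after seeing the data. Some genes that the rule would name are not reported here.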

Additional observations from a re-analysis of the deposited data

Results flagged for a closer look

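Tgfbr2 in the germ-free library at ZT02 stood far from the other germ-free libraries. Its level was 239 CPM, and on the log2 CPM scale its gap to the nearest library was 0.642 of the range of all 9, above Dixon's critical value of 0.493. Each of the 10 genes was tested in the germ-free arm in this way, and chance marks about 1 in 20 such groups. The 9 libraries came from 6 times of day, and this was the only germ-free one at ZT02. Time of day and a library standing apart therefore cannot be told apart. The same library had the highest sums of macrophage markers (1277 CPM) and mesothelial markers (549 CPM) of all libraries, and the part of these cells in the Tgfbr2 value was not tested. Without it, the log2 fold change of Tgfbr2 was -0.07 (edgeR adjusted p = 0.349).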

How the results depend on the processing

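The calls for Tgfb1, Tgfb3, Tgfbr1 and Tgfbr3 held with RLE scaling, no filter, the replicate block, the length offset, DESeq2, ZT06, ZT10 and ZT22 alone, without libraries high in duct markers and without the 2 germ-free libraries. The median log2 fold change of all genes was 0.0257 in the main fit. It was 0.0196 with RLE scaling, 0.0186 with DESeq2 and 0.028 with the length offset. With the replicate block 3 of the 10 genes were lower and 1 higher, and no call among the 10 changed, while Ppm1a lost its call (adjusted p = 0.0519). Across all genes 2636 were higher and 1991 lower with that block. Differences between libraries numbered 1 and 2 correlated across arms at 0.556 (ZT06), 0.219 (ZT10) and -0.183 (ZT22). Between all 36 pairs of groups these correlations ranged from -0.591 to 0.601, with a median of 0.153. So few values cannot decide whether the numbers pair the samples or mark a batch.

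Libraries numbered 2 alone gave 0 of the 10 genes higher, and 445 higher and 466 lower among all genes. Libraries numbered 1 alone gave 0 higher and 0 lower, both among the 10 genes and among all, where the germ-free arm has 3 libraries. ZT06, ZT10 and ZT22 alone gave 539 higher and 1173 lower of all genes. With DESeq2, 1 of the 10 was rhythmic in germ-free fat and 1 differed in rhythm, and 2044 of all genes were rhythmic in germ-free and 815 in conventional fat, with 48 differing. Without libraries high in duct markers 0 of the 10 and 61 of all genes were rhythmic in conventional fat, and 305 without the 2 germ-free libraries. The causes were not tested.

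Without single libraries, the 10 genes gave 1 to 1 higher and 3 to 4 lower, 0 to 0 rhythmic in germ-free and 0 to 1 in conventional fat and 0 to 0 differing in rhythm. All genes gave 1585 to 2846 higher, 1794 to 2437 lower, 385 to 1110 and 54 to 262 rhythmic in germ-free and conventional fat, and 0 to 3 differing.

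Signs turned for 5 genes. Tgfbr2 stood at -0.0017 with RLE, -0.0017 with DESeq2, -0.014 with the replicate block, -0.045 without libraries high in duct markers, -0.076 at ZT06, ZT10 and ZT22, -0.16 in libraries numbered 1, -0.12 without the 2 germ-free libraries and -0.074 to 0.032 without single ones. Inhbb stood at -0.024 without libraries high in duct markers. Acvr1c stood at 0.077 with the length offset and 0.040 in libraries numbered 2. Eng stood at 0.0011 with the length offset, 0.20 in libraries numbered 2 and -0.0836 to 0.0568 without single libraries. Ppm1a stood at -0.028 in libraries numbered 1. Tgfb2 had the lowest mean level of the 10 genes, at 92 to 477 counts per library, and the part of depth in its spread was not tested.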
